A study of Mus musculus with 8 samples.

Results

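Small leucine-rich proteoglycans are secreted proteins of the extracellular matrix, and 8 of their genes were followed in macrophages grown from mouse bone marrow: decorin (Dcn), biglycan (Bgn), lumican (Lum), osteoglycin (Ogn), fibromodulin (Fmod), asporin (Aspn), prolargin (Prelp) and osteomodulin (Omd). They were chosen by name, through the mouse Ensembl gene identifiers that carry these symbols, and all 8 of 8 were found among the 34745 genes of the count table. The rule uses no measured value, although the genes were proposed with earlier results of these data known. Enough counts for a test were present for 6 of the 8, and Aspn and Omd had at most 3 counts in any library.

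The cells were primary bone-marrow-derived macrophages (BMDM) raised with recombinant M-CSF, the growth factor that drives macrophage differentiation, at 20 ng/ml. The 8 libraries of captured messenger RNA form 4 groups of 2: WT untreated, WT with R848, KAT8-deficient untreated, and KAT8-deficient with R848. R848 was given at 100 ng/ml for 6 h, and the untreated cells received none. The sample titles call the mutant cells KAT8-cKO. The sources used here do not give the promoter driving a recombinase, the deleted part of the gene, or the strain, age and number of the animals, and they do not say if the paired libraries of each group are separate mice or cultures. P-values therefore measure the spread between these libraries, which may be technical.

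KAT8 (MOF) is an acetyltransferase of histone H4, and R848 (resiquimod) activates the nucleic acid sensor TLR7. Kat8 itself stood at 17.4 ± 0.641 CPM (read counts scaled to the normalised library total; SD, n = 2) in untreated WT cells and at 17.0 ± 1.45 in WT cells with R848. In KAT8-deficient cells it stood at 9.76 ± 1.41 untreated and at 10.2 ± 0.307 with R848. Its mean genotype difference was -0.79 on the log2 scale (SE 0.0885, edgeR quasi-likelihood test, Benjamini-Hochberg adjusted p = 0.000695), so its level followed the labels, and Kat8 counts remained in the mutant cells. Total counts ran from 18550977 to 21384532 per library, where 3 counts, taken as the limit of detection, equal 0.14 to 0.162 CPM. Such limits cover counting error only.

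Each small leucine-rich proteoglycan has a core of leucine-rich repeats that binds collagen, and most carry chondroitin, dermatan or keratan sulfate chains. They set the spacing and width of collagen fibrils, and several hold growth factors of the TGF-beta family in the matrix. Decorin, biglycan and asporin form class I of the family, lumican, fibromodulin, prolargin and osteomodulin class II, and osteoglycin belongs to class III. Fibroblasts, bone, cartilage, tendon, smooth muscle and mesothelial cells are known to make them, and macrophages are known to sense released biglycan and decorin through TLR2 and TLR4.

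The promoters of members that were abundant, intermediate and near 0 are shown because the tested members were higher together in KAT8-deficient cells. Each is the 250 bases before the RefSeq start of the gene on build GRCm38.p6, written 5′ to 3′ on the strand of the gene, and capitals mark every match to the searched motifs on either strand. RefSeq windows were found for 6 of the 8 members, all but Lum and Dcn. Bgn (chrX:73483351-73483600, plus strand), Ogn (chr13:49607765-49608014, plus strand), Fmod (chr1:134037004-134037253, plus strand) and Aspn (chr13:49544193-49544442, plus strand) read as follows.
Bgn: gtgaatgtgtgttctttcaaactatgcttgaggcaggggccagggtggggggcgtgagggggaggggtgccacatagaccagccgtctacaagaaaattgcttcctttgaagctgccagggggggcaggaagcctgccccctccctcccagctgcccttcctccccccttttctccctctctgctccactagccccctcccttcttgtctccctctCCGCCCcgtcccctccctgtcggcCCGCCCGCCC
Ogn: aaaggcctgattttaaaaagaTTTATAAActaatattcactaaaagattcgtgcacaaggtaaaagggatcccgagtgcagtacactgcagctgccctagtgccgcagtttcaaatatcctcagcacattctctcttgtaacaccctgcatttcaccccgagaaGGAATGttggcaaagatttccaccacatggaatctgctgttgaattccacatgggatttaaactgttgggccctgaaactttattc
Fmod: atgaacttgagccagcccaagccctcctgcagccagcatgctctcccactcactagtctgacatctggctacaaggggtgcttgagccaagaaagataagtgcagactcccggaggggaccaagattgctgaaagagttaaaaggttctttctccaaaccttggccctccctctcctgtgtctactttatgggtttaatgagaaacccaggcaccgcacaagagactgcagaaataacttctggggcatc
Aspn: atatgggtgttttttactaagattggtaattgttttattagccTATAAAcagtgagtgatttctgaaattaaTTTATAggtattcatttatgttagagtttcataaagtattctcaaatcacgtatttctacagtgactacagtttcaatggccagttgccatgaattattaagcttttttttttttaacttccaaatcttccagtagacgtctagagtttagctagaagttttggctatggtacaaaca
The windows differed in composition, from 64.4% G and C at Bgn to 51.2% at Fmod, 42.0% at Ogn and 30.0% at Aspn. The Bgn window held 3 matches to the GC box GGGCGG, all on the minus strand, at 34, 10 and 6 bases before the start, counted from the match's first base. The matches at 10 and 6 bases overlap by 2 bases. A GC box was present in 32.7% of 32851 windows of this length. The Ogn window held 2 overlapping matches to TATAAA, at 229 and 227 bases before the start, and 1 match to the TEAD element GGAATG at 86 bases. Aspn held 2 matches to TATAAA, at 207 and 178 bases. TATAAA occurs in 12.4% and GGAATG in 12.6% of all windows. The windows of Fmod, Prelp and Omd held no match to these letters or to the AP-1 element TGANTCA, which 6.75% of all windows hold. No motif was shared by the 4 tested members with a window (Bgn, Ogn, Fmod and Prelp), and a match is only a stretch of letters.

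Decorin and biglycan made up most of what was read from these genes. Over the 8 libraries, Dcn took 44.05% to 57.42% of all counts of the 8 genes, Bgn took 32.69% to 48.7%, and Lum took 3.064% to 6.517%. Scaled by length (CPM per kilobase of merged exons, mean over all libraries), the levels were 60.1 for Dcn, 48.6 for Bgn, 14.8 for Lum, 5.09 for Ogn, 2.01 for Fmod and 0.542 for Prelp. In untreated WT cells Dcn, at 45.2 ± 4.26, and Bgn, at 44.9 ± 0.306 (SD, n = 2), did not differ beyond their spread. The order of this pair also depends on the length used. With the longest transcript in place of the merged exons, Bgn reached 111.1 CPM per kilobase and Dcn 74.8. The steps from Lum down to Prelp came in the same order in all 4 groups.

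**Figure D1:**
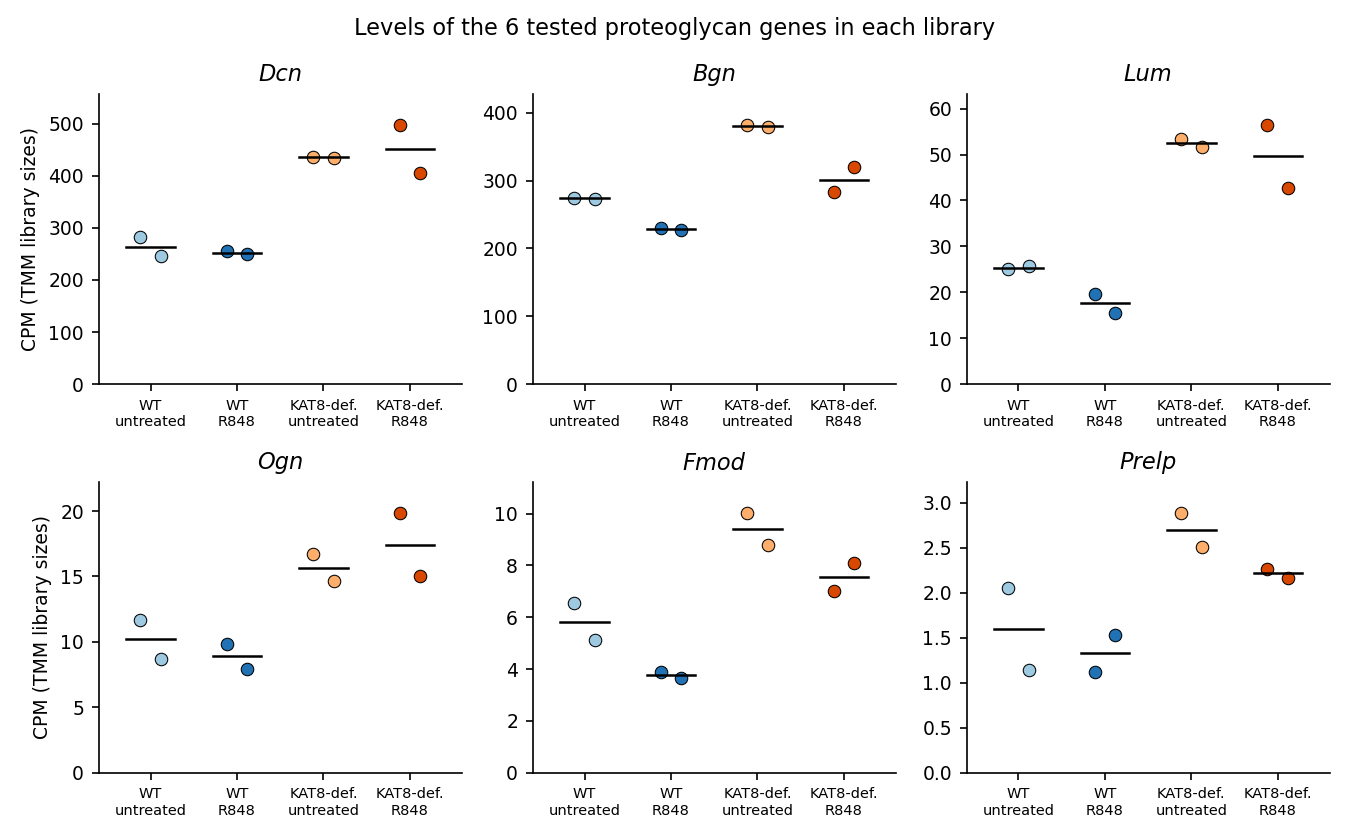
Level of each of the 6 tested proteoglycan genes in CPM on a linear axis from 0, 1 panel per gene. Points are the 2 libraries of each group and lines are group means. In every panel the 4 KAT8-deficient libraries lie above the 4 WT libraries, and for Bgn and Fmod the R848 libraries lie below the untreated ones in both genotypes.

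All 6 tested members were higher in KAT8-deficient than in WT cells when both treatment states were averaged. In edgeR's quasi-likelihood test, 6 of 6 passed an adjusted p of 0.05 as higher, against 11.0% of the 14040 genes tested. In each of the 6, all 4 KAT8-deficient libraries lay above all 4 WT libraries, which was so for 9.42% of all genes. The median of the 6 log2 differences was 0.79, where the median of all genes was -0.01. In bulk libraries a change in the number of cells that express a gene and a change in RNA per cell cannot be told apart.

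Markers of several cell types other than macrophages moved with the members. Over all genes 11.0% passed as higher by genotype and 7.56% as lower. Summed over the 8 genes, the members held 506.6 to 602 CPM in WT and 793 to 902 CPM in KAT8-deficient libraries. All 7 of 7 mesothelial markers rose by genotype, with a median of 0.70, and their sum was 348 to 432 CPM in WT and 549.8 to 643.5 in KAT8-deficient libraries, with none at 0. Of the fibroblast markers 11 of 12 were tested and 6 rose, with a median of 0.48. Their sum was 646 to 789 against 849 to 1001 CPM. For smooth muscle and pericytes 3 of 6 tested markers rose, with a median of 0.37, and the sums overlapped at 522 to 643 and 601 to 837 CPM. Those that rose were Acta2, Tagln and Cnn1, while Mcam (0.32), Des (-0.06) and Myh11 (-0.24) did not pass. The endothelial list did not move in 1 direction. Of its 3 tested markers Vwf rose and Cdh5 and Eng fell, with a median of -0.80, and the sums overlapped at 84.2 to 116 and 94.8 to 109 CPM. The part of these cell types in the result was not tested.

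Lumican, a keratan sulfate proteoglycan known best from cornea and skin, differed most. Lum stood at 25.2 and 25.6 CPM in the 2 untreated WT libraries, at 19.7 and 15.5 in WT with R848, at 53.4 and 51.6 in the untreated mutant, and at 56.5 and 42.7 in KAT8-deficient cells with R848. The lowest mutant library was thus well above the highest WT library. Over 4 libraries the WT mean was 21.5 ± 4.82 CPM and the KAT8-deficient mean 51.1 ± 5.91, 2.38-fold apart. The mean log2 difference was 1.27 (SE 0.103, edgeR adjusted p = 0.000184).

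Decorin, which binds collagen I and TGF-beta, had the highest CPM averaged over all libraries, although in untreated WT cells its mean (264 CPM) was below that of Bgn (274 CPM). Dcn read 282 and 246 CPM in untreated WT cells, 255 and 250.2 in WT with R848, 437 and 434 in the untreated mutant, and 498 and 405 in the mutant with R848. The WT libraries with R848 and the untreated mutant libraries were close pairs, the untreated WT libraries lay farther apart, and the mutant libraries with R848 were the most spread. The genotype means were 258 ± 15.9 and 443 ± 39.1 CPM (SD, n = 4), 1.72-fold apart, with a mean log2 difference of 0.78 (SE 0.071, edgeR adjusted p = 0.000289).

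Biglycan, a close relative of decorin that can act as a ligand of TLR2 and TLR4 once released, showed the smallest genotype difference of the 6. Bgn read 275 and 273 CPM in untreated WT cells, 229.8 and 228 in WT with R848, 382 and 379 in the untreated mutant, and 283 and 319.8 in the mutant with R848. Mutant cells with R848 came closest to untreated WT cells, with a gap of under 10 CPM between the nearest libraries. The genotype means were 251 ± 26 and 341 ± 48.0 CPM (SD, n = 4), with a mean log2 difference of 0.44 (SE 0.047, edgeR adjusted p = 0.000597).

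Osteoglycin (mimecan), found in bone, vessel wall and heart, stood at 11.7 and 8.69 CPM in untreated WT cells, 9.87 and 7.96 in WT with R848, 16.7 and 14.7 in the untreated mutant, and 19.8 and 15 in the mutant with R848. The mean log2 difference of Ogn was 0.79 (SE 0.135, edgeR adjusted p = 0.00493). Fibromodulin, which takes part in collagen cross-linking in tendon, gave 6.57 and 5.11 CPM, 3.89 and 3.68, 10.02 and 8.77, and 7.02 and 8.11 in the same order of groups. Its lowest mutant library was only slightly above its highest WT library. The mean log2 difference of Fmod was 0.84 (SE 0.117, edgeR adjusted p = 0.00194).

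Prolargin, a heparin-binding member of connective tissue and basement membranes, was the scarcest tested gene. Prelp had 44 and 21 raw counts in untreated WT cells, 21 and 30 in WT with R848, 55 and 47 in the untreated mutant, and 48 and 46 in the mutant with R848. The genotypes did not overlap, but the highest WT library, at 2.05 CPM, lay just below the lowest mutant library, at 2.17 CPM. The mean log2 difference was 0.74 (SE 0.216, edgeR adjusted p = 0.0462). This call is the least firm of the 6. It was lost when any 1 library other than the first untreated WT library was left out (adjusted p from 0.0669 to 0.142), and under the DESeq2 Wald test (adjusted p = 0.141), while the other 5 calls were kept without any 1 library.

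Asporin and osteomodulin were at the limit of detection. Aspn, which in cartilage and ligament restrains TGF-beta and BMP signals, had 3 counts in the second KAT8-deficient library with R848 and 0 in the other 7. Omd, a bone matrix protein, had 1 and 0 counts in untreated WT cells, 0 in both WT libraries with R848, 3 and 1 in the untreated mutant, and 2 and 0 in the mutant with R848. No library exceeded the limit of 3 counts for either gene, so no difference was detectable at this depth.

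The genotype difference was then taken separately in each treatment state, to ask whether it was present before stimulation. In untreated cells 3 of 6 members passed as higher, against 2.91% of all genes. They were Lum at 1.05 (SE 0.144, adjusted p = 0.00851), Dcn at 0.72 (SE 0.10, adjusted p = 0.00923) and Bgn at 0.48 (SE 0.0666, adjusted p = 0.00926), all log2 differences in edgeR's test. The other 3 had differences of similar size with wider errors. Fmod stood at 0.68 (SE 0.161, adjusted p = 0.0537), Ogn at 0.62 (SE 0.191, adjusted p = 0.119) and Prelp at 0.74 (SE 0.299, adjusted p = 0.21). These 3 calls rested on few libraries. Without the first untreated KAT8-deficient library none of the 6 passed, without the second 1 did, Lum was also lost without the first untreated WT library (adjusted p = 0.0633), and Dcn without the second (adjusted p = 0.0512).

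Under R848, 5 of 6 members passed as higher, against 8.14% of all genes. The log2 differences were 1.5 for Lum (SE 0.148, edgeR adjusted p = 0.000638), 0.84 for Dcn (SE 0.101, adjusted p = 0.00124) and 0.40 for Bgn (SE 0.0667, adjusted p = 0.00544). Ogn stood at 0.97 (SE 0.192, adjusted p = 0.0118) and Fmod at 1.00 (SE 0.17, adjusted p = 0.00601). Prelp had a similar estimate, 0.74 (SE 0.312, adjusted p = 0.165), and did not pass. Of the 5 calls, that of Ogn was lost without the second WT library with R848 (adjusted p = 0.0855) or without the first KAT8-deficient library with R848 (adjusted p = 0.0721). The comparisons in the 2 states use different libraries.

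**Figure D2:**
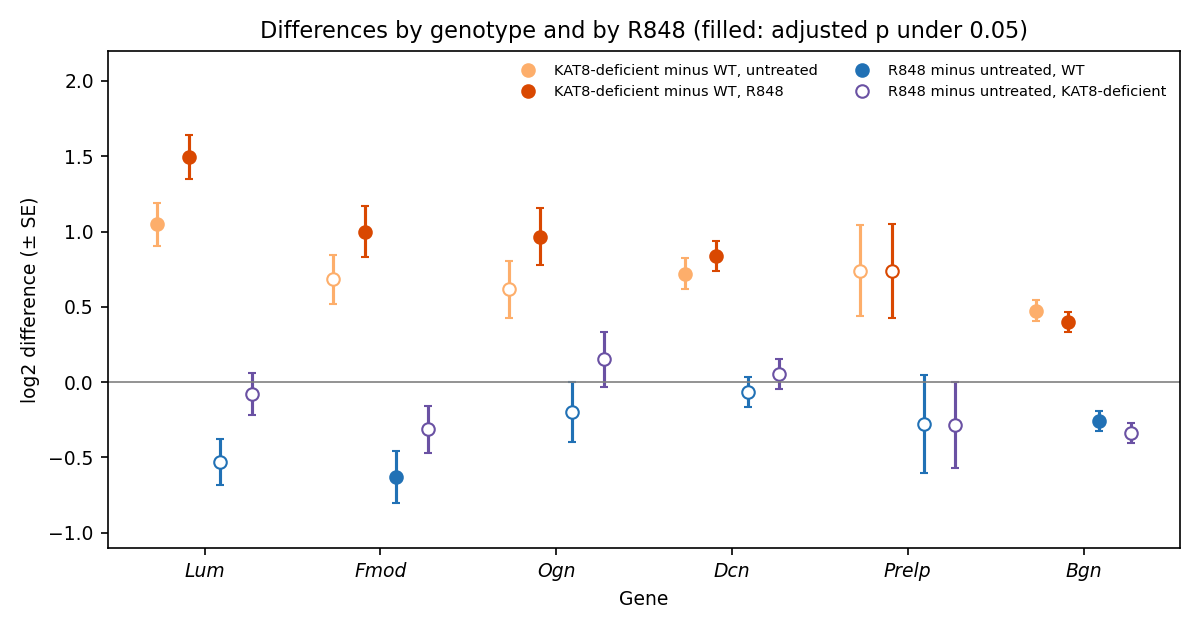
Log2 differences of the 6 tested members with their standard errors, by genotype in untreated and R848-treated cells and by R848 in each genotype. Filled points have an edgeR adjusted p under 0.05. Every genotype difference is above 0, from 0.40 for Bgn to 1.5 for Lum, and filled R848 points occur only in WT cells, for Bgn and Fmod.

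Fewer members passed for R848 than for genotype. In WT cells 2 of 6 passed as lower, Bgn and Fmod, against 6.70% of all genes. Bgn fell by 0.26 on the log2 scale (SE 0.0667, edgeR adjusted p = 0.0354) and Fmod fell by 0.63 (SE 0.175, adjusted p = 0.047). The treated libraries lay below the untreated ones for 3 of 6 members, Lum, Bgn and Fmod, which was so for 28.3% of all genes. Lum had a difference of -0.53 (SE 0.15, adjusted p = 0.051) and narrowly missed the threshold. It passed under 6 of 8 other settings (adjusted p from 0.0131 to 0.0491; 0.0519 and 0.0737 in the other two), whereas Fmod passed under 4 of 8 (adjusted p from 0.057 to 0.131 in the rest) and Bgn under all 8. Dcn stood at -0.06 (SE 0.10, adjusted p = 0.739), Ogn at -0.20 (SE 0.198, adjusted p = 0.578) and Prelp at -0.28 (SE 0.326, adjusted p = 0.643), with overlapping libraries. The call of Bgn was lost when any 1 library other than the 2 KAT8-deficient libraries with R848 was left out (adjusted p from 0.0556 to 0.133), and that of Fmod when any 1 other than the second untreated WT library was left out (adjusted p from 0.0529 to 0.192). Conversely, the difference of Lum passed without either KAT8-deficient library with R848 (adjusted p = 0.0197 and 0.0191).

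In KAT8-deficient cells 0 of 6 members passed for R848, where 0.634% of all genes did in either direction. At an unadjusted p under 0.05 the count was 1, Bgn, which stood at -0.34 (SE 0.0665, edgeR adjusted p = 0.0738), and the DESeq2 Wald test called this gene alone (adjusted p = 0.00424). Both R848 libraries lay below both untreated ones for 3 of 6 members, Bgn, Fmod and Prelp, against 23.0% of all genes. Fmod stood at -0.31 (SE 0.157, adjusted p = 0.416) and Lum at -0.08 (SE 0.139, adjusted p = 0.844). With both genotypes averaged, 2 of 6 members were lower and 0 higher, against 7.31% and 7.53% of all genes. Bgn fell by 0.30 (SE 0.0471, edgeR adjusted p = 0.00393) and Fmod fell by 0.47 (SE 0.117, adjusted p = 0.0299), while Lum, at -0.31 (SE 0.102, adjusted p = 0.0811), did not pass. The averaged call of Bgn was kept without any 1 library. That of Fmod was lost without 5 of the 8, namely the first untreated WT library, either WT library with R848, the first untreated KAT8-deficient library or the first KAT8-deficient library with R848 (adjusted p from 0.075 to 0.0985). In the same averaged response 3 of 7 mesothelial, 3 of 6 smooth muscle and pericyte and 2 of 11 fibroblast markers fell and 1 fibroblast marker rose, and their part in these differences was not tested.

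The response to R848 was not shown to differ between the genotypes for any member. The interaction, which is the R848 response of KAT8-deficient cells minus that of WT cells, passed for 0 of 6 in edgeR's test, where 0.228% of all genes passed. The count was also 0 at an unadjusted p under 0.05, and 0 with DESeq2 and limma-voom. The largest estimate was that of Lum, at 0.45 (SE 0.205, edgeR adjusted p = 0.46). With 2 libraries per group this leaves differences of that size undecided.

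Because a ratio of counts within a library does not depend on scaling between libraries, ratios between members were compared next. The ratio of Dcn to Bgn was 1.02 and 0.905 in untreated WT cells, 1.11 and 1.10 in WT with R848, 1.14 and 1.14 in the untreated mutant, and 1.76 and 1.27 in the mutant with R848. Decorin was thus higher relative to biglycan in all mutant libraries, and with R848 in each genotype. The first KAT8-deficient library with R848 stood apart from its partner, with more Dcn and less Bgn. The ratio of Lum to Bgn ran from 0.0681 to 0.0941 in WT and from 0.134 to 0.199 in KAT8-deficient libraries, without overlap. The ratio of Lum to Dcn ran from 0.062 to 0.104 and from 0.106 to 0.122, with a narrow gap. The ratio of Ogn to Dcn overlapped, at 0.0318 to 0.0415 in WT and 0.0338 to 0.0398 in mutant libraries.

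**Figure D3:**
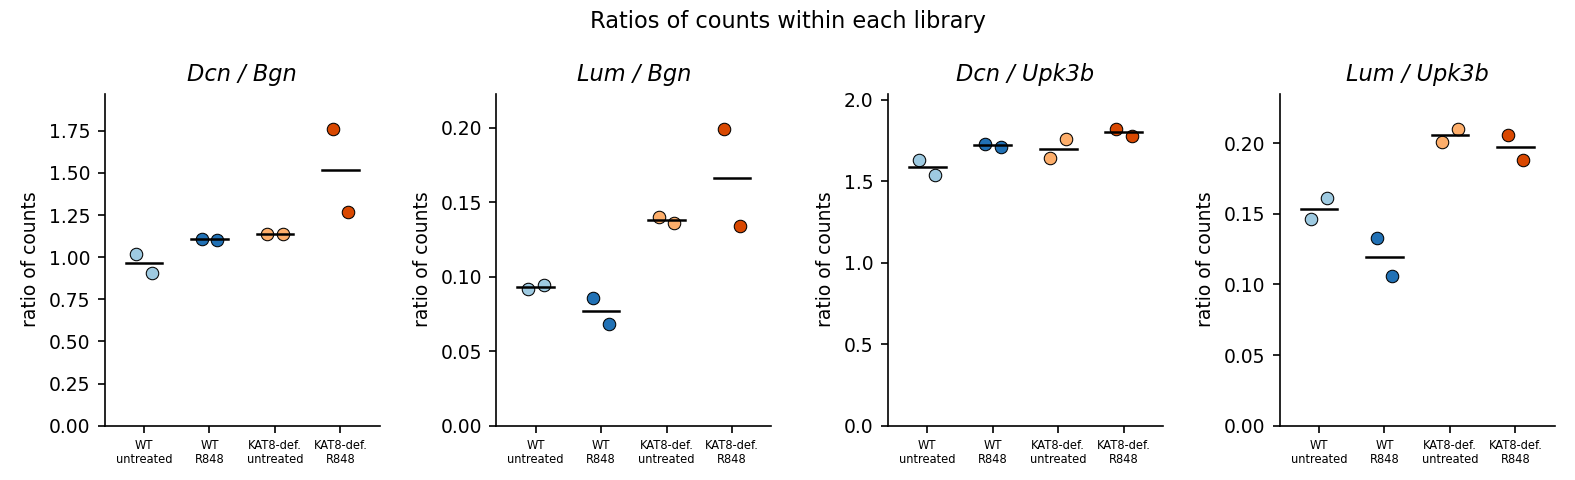
Ratios of raw counts within each library on linear axes from 0, for Dcn and Lum against Bgn and against the mesothelial gene Upk3b. Points are libraries and lines are group means. Dcn to Bgn, Lum to Bgn and Lum to Upk3b are higher in all KAT8-deficient libraries, while Dcn to Upk3b overlaps between the genotypes. Upk3b is among the profiles nearest to Dcn in these same libraries, so that overlap follows largely from their likeness.

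Members also differed in their profile over the 8 libraries. Likeness was measured as the root mean square distance between centred log2 CPM profiles, as a description only, since all points share the same libraries. Profiles were not scaled to equal size, so a distance holds differences in the size of change as well as in shape. Dcn and Ogn were the closest pair at 0.118, and Lum and Bgn the farthest at 0.465. The root mean square of the centred profile was 0.674 for Lum and 0.268 for Bgn, so size accounts for much of that last distance. Among 10555 genes with at least 5 CPM on average, those nearest to Dcn were Cxadr (0.072), Upk3b (0.0733) and C4b (0.0752). Cxadr encodes a junction protein used as a virus receptor, Upk3b a uroplakin made by mesothelium, and C4b a complement component. The nearest to Lum were Shroom3 (0.121), Mgp (0.131) and Dpp4 (0.148). The nearest to Bgn were Cnn2 (0.0551), Thbs1 (0.0558) and Tpi1 (0.0662), which encode a calponin, thrombospondin-1 and a glycolytic enzyme. Ogn lay nearest to Cxadr (0.114), then Dcn (0.118) and Upk3b (0.139), and Fmod nearest to Tshz3 (0.0963), Cavin2 (0.136) and Kitl (0.137). Prelp, below 5 CPM, was not ranked.

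Family genes that share a chromosome cluster were read very differently. On chromosome 13 (build GRCm38) Aspn (49544443 to 49567565) is followed after 14.9 kb by Omd (49582462 to 49592822) and after a further 15.2 kb by Ogn (49608046 to 49624501), all on the plus strand. In this cluster only Ogn, with 156 to 421 counts per library, rose above 3 counts among the members, and the neighbouring Ecm2 had at most 7. The centromere gene Cenpp runs across this cluster on the minus strand with 9 to 26 counts, shares 7 exonic bases with Aspn and none with Omd or Ogn. The sources used here do not give the strand setting of the counting. On chromosome 10 Dcn (97479609 to 97518143) lies 47.0 kb before Lum (97565128 to 97572703), and both were read in every library, whereas Kera, 34.2 kb beyond Lum, had 0 counts in all 8 and Epyc at most 7. On chromosome 1 Prelp (133910304 to 133921414) and Fmod (134037254 to 134048277), 115.8 kb apart, were both read, and Optc, 2.3 kb from Prelp, had at most 7 counts. The antisense gene Gm15851, which shares 350 exonic bases with Prelp, had 0 counts in every library. Bgn (73483602 to 73495933) lies on chromosome X with no family gene beside it.

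None of the 3 other family genes that could be tested passed for genotype. Of 9 other genes of the family, 3 were tested and 0 passed in edgeR's mean genotype difference (0 also at an unadjusted p under 0.05). Over all genes 11.0% were higher and 7.56% lower, so a count of 0 among 3 does not set these genes apart. Tsku, a secreted inhibitor of several growth factors, had 289 to 447 counts per library and a difference of -0.21 (SE 0.123, adjusted p = 0.277). Podnl1 had 9 to 37 counts and stood at -0.30 (SE 0.345, adjusted p = 0.588), and Podn had 5 to 21 counts and stood at 0.90 (SE 0.487, adjusted p = 0.236). The wide error of Podn leaves its difference undecided. Nyx had 1 to 16 counts, Chad had 1 count in a single library, and Ecm2, Epyc and Optc had 0 to 7.

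Collagens and their partners, to which these proteoglycans bind, were mostly higher as well. In the mean genotype difference 12 of 16 tested members of this list rose, against 11.0% of all genes, and 0 fell. The median log2 difference was 0.43. For Col3a1, the collagen III chain, the log2 difference was 1.02 (SE 0.0844, edgeR adjusted p = 0.000197), for Col6a3 0.68 (SE 0.0593, adjusted p = 0.000233) and for Col5a2 0.50 (SE 0.0388, adjusted p = 0.000163). The ratio of Dcn to Col1a2 was 0.177 to 0.244 in WT and 0.261 to 0.343 in mutant libraries, without overlap, whereas its ratio to Col3a1 overlapped at 0.923 to 1.42 and 0.86 to 1.07. Lum was likewise higher in all mutant libraries relative to Col1a2, at 0.0305 to 0.0389 against 0.0141 to 0.0202, and overlapped relative to Col3a1, at 0.105 to 0.116 against 0.0752 to 0.11. For Bgn the ratio to Col1a2 overlapped at 0.196 to 0.221 and 0.195 to 0.235, and that to Col3a1 was lower in all mutant libraries, at 0.582 to 0.842 against 1.02 to 1.28. The comparison of a member with collagen thus depends on the chain taken. R848 lowered 6 of the 16, and raised none, in the averaged response, against 7.31% and 7.53% of all genes.

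Among 18 tested core proteins of other proteoglycans, 7 rose by genotype, against 11.0% of all genes, and 0 fell, with a median of 0.28. They were Gpc3, Gpc4, Sdc2, Sdc3, Sdc4, Tgfbr3 and Col18a1, of which Gpc3, a glypican of the cell surface, had the smallest p, with a difference of 0.95 (SE 0.123, edgeR adjusted p = 0.00132).

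Enzymes that build the chains on these core proteins showed no common direction. Of 22 tested genes for chondroitin and dermatan sulfate synthesis, 2 rose by genotype and 2 fell, with a median of 0.02. Over all genes 11.0% were higher and 7.56% lower. Csgalnact1, which starts chondroitin chains, rose by 0.99 (SE 0.184, edgeR adjusted p = 0.00714), and Xylt1, which attaches the first xylose to the core protein, rose by 0.24 (SE 0.0459, adjusted p = 0.00871). Csgalnact1, at 2.3 CPM on average, passed under R848 (2.74-fold) and not in untreated cells (1.45-fold). Xylt1 differed by -0.15 (adjusted p = 0.245) in untreated cells and by 0.62 (adjusted p = 0.00079) under R848. Chpf2, a polymerising factor, fell by 1.3 (SE 0.226, adjusted p = 0.00521) with overlapping libraries. Its difference was 0.14 (SE 0.309, adjusted p = 0.849) in untreated cells, at 90.1 ± 39 and 99.2 ± 40.9 CPM, and -2.75 (SE 0.336, adjusted p = 0.0013) under R848, at 154 ± 1.08 and 23 ± 2.31 CPM (SD, n = 2). The interaction of Chpf2 was -2.88 (SE 0.452, edgeR adjusted p = 0.0537) and did not pass. Fam20b, a xylose kinase, fell by 0.25 (SE 0.047, adjusted p = 0.00769). With R848 the averaged response of Xylt1 was -0.63 (SE 0.046, adjusted p = 0.000106). Of 9 tested genes for keratan sulfate synthesis and tyrosine sulfation, 2 rose by genotype, both galactosyltransferases. They were B4galt4 at 0.47 (SE 0.083, adjusted p = 0.00551) and B4galt1 at 0.25 (SE 0.0403, adjusted p = 0.00357). Both passed under R848, where mutant cells were 1.52-fold and 1.33-fold higher. Neither passed in untreated cells, at 1.27-fold and 1.06-fold.

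Of 15 tested proteases that process or cleave these proteins, 8 rose by genotype and 1, Mmp9, fell, with a median of 0.22. The shares of all genes were 11.0% and 7.56%. Htra1, a serine protease of the matrix, rose by 0.56 (SE 0.0619, edgeR adjusted p = 0.000654), and Ctsk, the collagen-degrading cathepsin K, by 0.33 (SE 0.0408, adjusted p = 0.00107). With R848 the gelatinase Mmp2 fell by 0.64 (SE 0.0811, adjusted p = 0.00129) and Mmp14 rose by 0.43 (SE 0.0631, adjusted p = 0.00278), while their genotype differences, 0.05 and -0.06, did not pass.

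Receptors and growth factors known to bind members moved in both directions. By genotype 6 of 21 rose and 3 fell, against 11.0% and 7.56% of all genes, with a median of 0.03. Tgfb3, a ligand held by decorin and biglycan, rose by 0.82 (SE 0.0654, edgeR adjusted p = 0.000174), and Egfr, a receptor bound by decorin, by 0.46 (SE 0.0459, adjusted p = 0.000409). Tlr2, through which biglycan signals, fell by 0.94 (SE 0.103, adjusted p = 0.000654), and Met, another decorin receptor, fell by 0.41 (SE 0.0557, adjusted p = 0.00174). Met differed by -0.04 (SE 0.0793, adjusted p = 0.814) in untreated cells and by -0.77 (SE 0.0784, adjusted p = 0.000659) under R848, and Tlr2 by -0.44 (SE 0.148, adjusted p = 0.142) and -1.43 (SE 0.145, adjusted p = 0.000659). Neither interaction passed (edgeR adjusted p = 0.0514 and 0.0913). In the averaged response to R848 each of these 4 moved the other way. Tlr2 rose by 1.87 (SE 0.105, adjusted p = 5.35e-05) and Met by 0.93 (SE 0.056, adjusted p = 6.26e-05), and Tgfb3 fell by 0.63 (SE 0.0653, adjusted p = 0.000476) and Egfr fell by 0.16 (SE 0.0458, adjusted p = 0.0481).

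**Figure D4:**
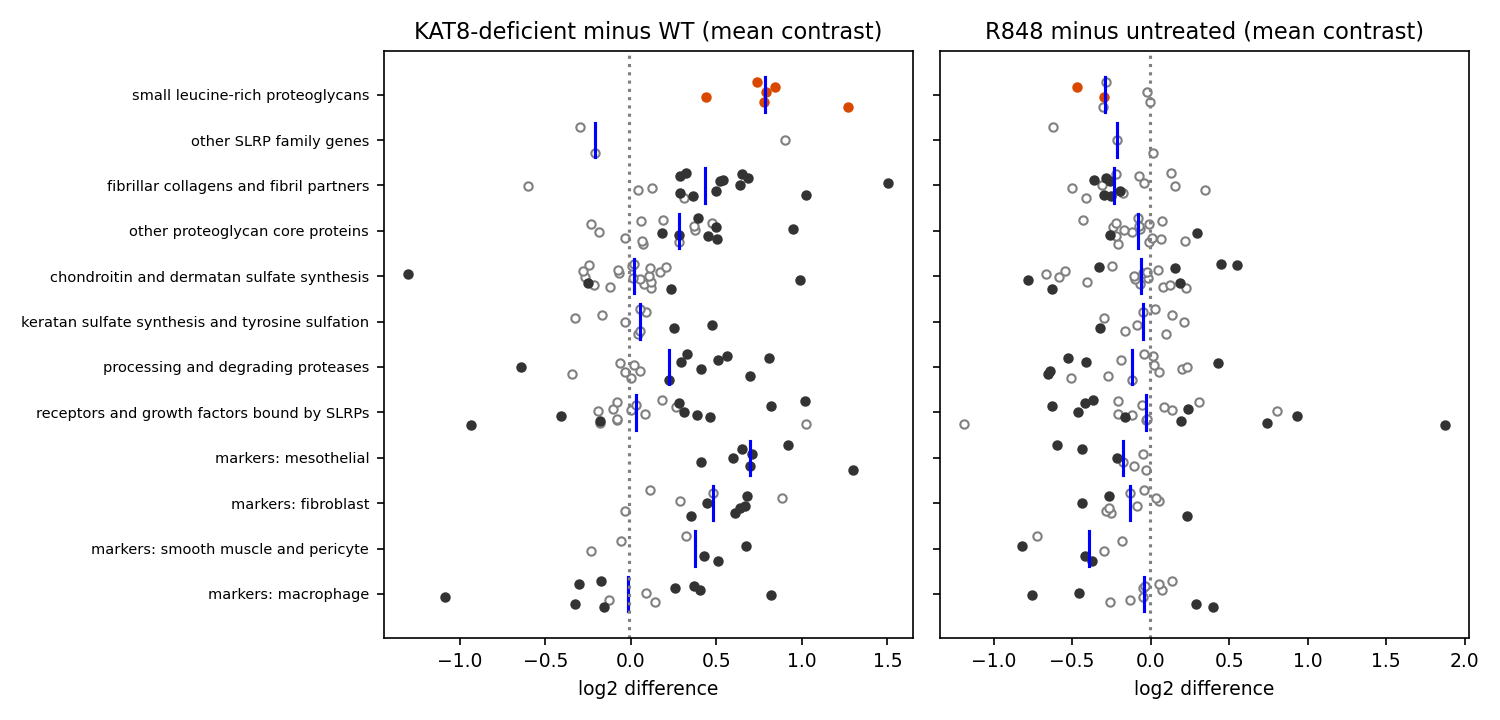
Log2 difference of every tested gene in 12 lists, by genotype averaged over treatment (left) and by R848 averaged over genotype (right). Filled points have an edgeR adjusted p under 0.05, in orange for the members and dark grey for the other lists. Open points, members included, did not pass. Blue bars are list medians and the dotted line is the median of all genes. Members, mesothelial markers, fibroblast markers and collagens lie mostly to the right on the left side, with medians of 0.79, 0.70, 0.48 and 0.43.

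Ratios to 1 mesothelial gene, Upk3b, separated the members. Upk3b was among the 3 profiles nearest to Dcn (0.0733) in these same libraries, so the overlap of their ratio follows largely from that likeness. The ratio of Dcn to Upk3b was 1.54 to 1.73 in WT and 1.64 to 1.82 in KAT8-deficient libraries, which overlap. The ratio of Lum to Upk3b was higher in all mutant libraries, at 0.188 to 0.21 against 0.106 to 0.161, and that of Bgn was lower in all of them, at 1.04 to 1.54 against 1.55 to 1.71. The mean genotype difference of Upk3b was 0.70 on the log2 scale (SE 0.0652, edgeR adjusted p = 0.00033), beside 0.78 for Dcn, 1.27 for Lum and 0.44 for Bgn. Over the 7 mesothelial markers it ran from 0.41 for Wt1 to 1.3 for Msln. Such ratios thus depend on the marker taken, and those to the other markers were not compared.

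Several defining markers of the skeletal cells known for these proteins were near 0. Of 8 osteoblast markers Bglap2, Ibsp and Dmp1 had 0 counts everywhere and Sp7 and Bglap at most 3, and the list summed to 14.8 to 18 CPM in WT and 18.7 to 20.9 in mutant libraries. Of the 2 tested, Alpl rose by genotype from 4.69 to 7.45 CPM (log2 difference 0.66, SE 0.116, edgeR adjusted p = 0.00558), and Runx2, at 11.2 and 12.1 CPM, did not pass. Of 8 cartilage and tendon markers Col9a1 and Matn1 were at 0 and Cnmd and Tnmd had at most 3 counts, and the list summed to 9.74 to 11.9 CPM in WT and 9.47 to 11.8 in mutant libraries. Of the 3 tested, Scx rose from 0.37 to 0.783 CPM (log2 difference 1.19, SE 0.298, adjusted p = 0.0263) with overlapping libraries, and Sox9, at 9.85 and 9.67 CPM, did not pass. Of 7 marrow reticular markers Lepr and Adipoq had at most 3 counts. Of the 5 tested, 2 rose, Cxcl12 and Kitl, against 11.0% of all genes. Vcam1, at -0.02 in the averaged contrast, was higher in untreated mutant cells (0.44, SE 0.0965, edgeR adjusted p = 0.0419). Under R848 it was lower (-0.47, SE 0.0932, adjusted p = 0.0115), and its interaction passed (-0.91, SE 0.134, adjusted p = 0.0446). The markers of the labelled cell type were abundant. All 12 macrophage markers were tested and their sum was 16000.0 to 17350.0 CPM in WT and 9708 to 10760.0 in KAT8-deficient libraries. Most of that gap was Lyz2, the macrophage lysozyme. Without it the sums were 4827 to 5214 and 4506 to 4820.0 CPM. Among the 12 markers 4 rose and 5 fell, against 11.0% and 7.56% of all genes.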

How the data were processed

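Messenger RNA of 8 mouse macrophage libraries was analysed from the authors' deposited table, which gives counts by Ensembl gene with a column for each library, per the file headers. The authors used StringTie 1.3.0, HISAT2 and edgeR on mm10, per the submitters' processing notes. The sources used here do not give the task of each tool, the annotation, the strand setting or the read length. All counts were whole numbers, and 0 columns were left unmatched. Genes without a symbol held 0.138% of counts. Symbols, positions and lengths came from GENCODE M21 (GRCm38, the build of mm10), and promoter windows from RefSeq (GRCm38.p6).

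Counts were filtered with filterByExpr, which left 14040 of 34745 genes and 99.95% of counts, scaled by TMM, and fitted with edgeR 4.0.16 in R 4.3.3. Its quasi-likelihood test (two-sided) used all 8 libraries, 1 mean per group, no replicate block and 4 residual degrees of freedom. P-values were adjusted over all 14040 genes by the Benjamini-Hochberg method, with a threshold of 0.05. The SE is the absolute log2 difference divided by the square root of F. CPM uses TMM library sizes. With 2 libraries per group a permutation test could not pass 0.05, and none was made. The fitting was tested on simulated data.

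The members and the lists were chosen with earlier results of these data known. Named genes were all 8 members, the other family genes, up to 4 genes per list with the smallest p in an averaged contrast, called genes where 5 or fewer were called, and the 3 nearest profiles of each member of at least 5 CPM whose libraries differed at least 1.5-fold. Alternatives were DESeq2 1.42.0 size factors, no filter, a filter of 5 CPM in 2 libraries, the DESeq2 Wald test, limma-voom (limma 3.58.1), robust estimation, a replicate block, only the 4 libraries compared, and each library left out.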

Additional observations from a re-analysis of the deposited data

Results flagged for a closer look

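One gene of the pathway responded differently to R848 in the 2 genotypes. Xylt1, whose enzyme starts the sugar chains of decorin and biglycan, stood at 132 and 140.5 CPM in untreated WT cells and at 64.6 and 70.3 with R848. In the mutant it stood at 121 and 125 untreated and at 104 and 104 with R848. Its R848 response was -1.01 (SE 0.0657, edgeR adjusted p = 8.97e-05) in WT and -0.25 (SE 0.0646, adjusted p = 0.156) in KAT8-deficient cells. The test of the difference itself, the interaction, gave 0.77 on the log2 scale (SE 0.0919, adjusted p = 0.0252). Under R848 the genotypes differed by 0.62 (SE 0.0656, adjusted p = 0.00079), whereas untreated cells differed by -0.15 (SE 0.0644, adjusted p = 0.245). Xylt2, of the same list, passed as higher with R848 in WT cells, from 40.9 ± 3.28 to 53.5 ± 3.14 CPM (SD, n = 2). Xylt1 was the only 1 of 22 tested genes of its list to pass for the interaction, against 0.228% of all genes. Its call under the other settings or without a library is not given here.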

How the results depend on the processing

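Across the 8 alternatives other than leaving out a library, all log2 differences by genotype kept their sign. The number of members called for R848 in WT cells was 2, 1 with limma-voom, and 3 (with Lum) with no filter, the 5 CPM filter or robust estimation; in KAT8-deficient cells it was 0, and 1 with no filter, the DESeq2 Wald test or robust estimation, each time Bgn. With each library left out in turn, the count of members called ran from 0 to 2 for R848 in WT cells, 0 to 0 in KAT8-deficient cells, 0 to 3 for genotype in untreated cells, 4 to 5 under R848, 0 to 0 for the interaction, 1 to 2 for the averaged R848 response and 5 to 6 for the averaged genotype difference. Over all genes, R848 in KAT8-deficient cells called 89, against 274 with no filter, 238 with DESeq2, 158 with robust estimation and 22 with only its 4 libraries; the genotype difference in untreated cells called 600, against 384 with only its 4 libraries; and the interaction called 32, against 245, 231 and 148 with no filter, DESeq2 and robust estimation. Leaving out 1 library gave 858 to 1826, 2 to 186, 66 to 606, 784 to 1894, 6 to 208, 1204 to 2024 and 1541 to 2247 genes, in the order of the members' counts above (with all libraries 1916, 89, 600, 1911, 32, 2084 and 2606). Fewer libraries leave fewer degrees of freedom; other causes were not tested.

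Replicate numbers are shared by the groups, but same-numbered libraries did not deviate together over the tested genes (correlations from -0.06 to 0.048). Counting noise of scarce genes weighs in these correlations, so they cannot show whether same-numbered libraries share an animal, culture or batch. With the number as a replicate block, Lum passed for R848 in WT cells (edgeR adjusted p = 0.0262) and Fmod did not (0.057), Ogn passed for genotype in untreated cells (0.0272), Lum passed in the averaged R848 response (0.0435) and Prelp did not in the averaged genotype difference (0.0557).

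Depth limits Prelp, at 21 to 55 counts, most, and leaves Aspn and Omd undecided.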
